A study of Mus musculus with 27 samples.

Results

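Junctions on chromosome 12 that lay far from the immunoglobulin heavy chain locus (Igh), on its centromeric side, were examined in CH12F3, a line of mouse B cells that can be stimulated to change its antibody class to IgA. Every junction on chromosome 12 at a position below 114389501 (mm9) was taken, which gave 3788 of 193201 junctions (1.96%) in 27 libraries of 9 clones. The Sα window (114489501 to 114509500) stands for the target region of the switch to IgA. It was placed around a peak of junctions in these data, not taken from an annotation. The boundary lies 100 kb on the centromeric side of that window. The junctions below the boundary ran from 3093228 to 114388117, a span of 111.3 Mb. No measured value other than position was used to choose them.

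The libraries were made by LAM-HTGTS, which primes from a fixed bait sequence and reads into the DNA found joined to it, called the prey. The position at which the bait ended varied between junctions. Here the bait was at the IgH Iμ promoter (bait alignments at chr12:114664780-114664913), and all cells had been stimulated for 72 h with 20 ng/mL IL-4, 1 ng/mL TGFβ and an antibody to CD40. The groups were 2 PAXX-/- clones, 2 XLF-/- clones, 2 XLF-/-PAXX-/- clones, 2 Ligase4-/- clones and WT, the unedited line, as 1 clone, with 3 libraries each. Per the series' design text, both double-mutant clones were derived from 1 PAXX-/- clone and the second Ligase4-/- clone was acquired from elsewhere. Tests over libraries of a genotype therefore measure the spread between these libraries and clones, and WT has no second clone.

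Class switch recombination joins double-strand breaks that the deaminase AID starts in switch regions, and non-homologous end joining seals most of them. DNA ligase IV makes the final seal, while XLF and PAXX are accessory factors of that pathway. Without the core factors, ends are joined by alternative routes that often use short stretches of identical sequence, called microhomology. Breaks elsewhere can also be joined to the bait, and ends on the same chromosome meet it more often than ends on other chromosomes. AID is known to act off target near the starts of some highly transcribed genes.

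Total junctions per library ran from 3610 to 14524, and those on far chromosome 12 from 47 to 446, with a median of 94. The libraries came from 8 sequencing runs, read from the read names. PAXX-/- and XLF-/- libraries shared 2 runs, while no other genotype shared a run, so in comparisons with WT, the double mutant or Ligase4-/- an effect of run cannot be told apart from one of genotype. Only 9 far junctions (0.238%) repeated another of the same library in position, strand and bait end, and the 3788 junctions fell at 3672 distinct positions and strands.

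Joints from the densest 1 Mb bin (81 to 82 Mb) show what was counted. In each, bait bases come first and prey bases last, read 5′ to 3′. Capitals mark the shared bases of a microhomology joint, the inserted bases of an insertion joint, and in the direct joint the last bait base and the first prey base.
Direct joint at 81212882, plus strand, Ligase4-/- clone 1: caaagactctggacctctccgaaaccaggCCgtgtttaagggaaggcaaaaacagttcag
Microhomology joint at 81214965, plus strand, 4 shared bases, XLF-/- clone 1: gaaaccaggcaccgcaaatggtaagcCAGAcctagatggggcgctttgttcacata
Insertion joint at 81124652, plus strand, 4 inserted bases, Ligase4-/- clone 1: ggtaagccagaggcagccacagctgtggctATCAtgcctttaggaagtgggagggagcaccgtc
A direct joint has neither shared nor inserted bases. In the tables that is an overlap of 0 between the bait and prey alignments of a read, a positive overlap is the microhomology length, and a negative one is the number of unaligned bases between them.

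Far chromosome 12 carried more junctions per Mb than the other chromosomes in every library. With all libraries counted together it held 34.0 junctions per Mb. Set against all other chromosomes together (39296 junctions over 2456.4 Mb), the density ratio in PAXX-/- clone 1 was 1.35, 1.22 and 1.17 in its 3 libraries. PAXX-/- clone 2 gave 1.2, 1.38 and 1.28. The PAXX-/- ratios were the 6 lowest of all 27 libraries.

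In XLF-/- clone 1 the ratio was 2.51, 2.98 and 2.52, and in clone 2 it was 1.65, 2.02 and 1.81. The XLF-/-PAXX-/- clones gave 2.09, 2.06 and 2.47 in clone 1 and 2.49, 2.53 and 2.38 in clone 2. All 6 double-mutant ratios lay above the 3 WT ratios. The Ligase4-/- libraries spread most, with 2.14, 3.32 and 3.59 in clone 1 and 2.05, 1.53 and 1.97 in clone 2. WT had 1.99, 1.53 and 1.43. Ligase4-/- and XLF-/- overlapped WT.

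**Figure D1:**
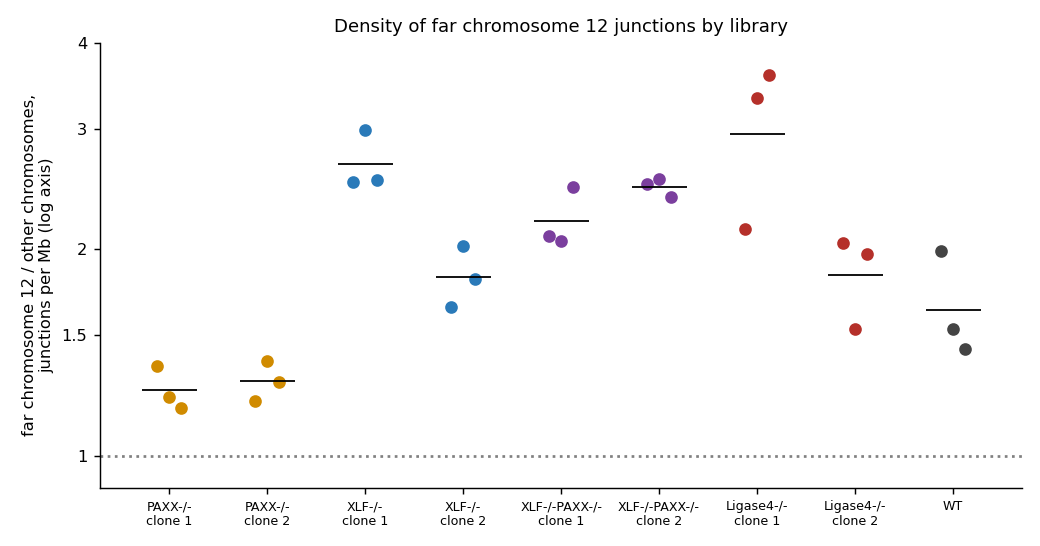
Junctions per Mb on far chromosome 12 divided by those on all other chromosomes (log axis), 1 point per library, with a line at the geometric mean of each clone's 3 libraries. All 27 points lie above the dotted line at 1, from 1.17 to 3.59, and the PAXX-/- points are the lowest.

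Averaged over the 9 clones the far chromosome 12 density was 1.93-fold that of the other chromosomes (mean log2 ratio 0.95), higher in 9 of 9 clones (exact sign-flip permutation p = 0.00391, adjusted p = 0.0420, two-sided). That p is the smallest that 9 clones allow. Adjusted p-values are over the 43 planned tests by the Benjamini-Hochberg method. Without the nearest 1 Mb the log2 ratio was 0.88, and its exact permutation p stayed at 0.00391 while the adjusted p was 0.0560. Without the 2 densest 1 Mb bins the log2 ratio was 0.66 (adjusted exact permutation p = 0.0420). Ranked with the 18 other autosomes and X, the density of far chromosome 12 was first in 14 libraries, among the first 3 in 25, and never below rank 5. Relative to the density over all other chromosomes, far chromosome 12 averaged 2.00 over clones (1.26 to 2.97), chromosome 14 averaged 1.82, chromosome 11 averaged 1.42 and X averaged 0.451.

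XLF-/- and PAXX-/- libraries differed in this density, in a test over libraries that come from only 2 clones per genotype. XLF-/- libraries had a density ratio 1.74-fold that of PAXX-/- libraries (95% interval 1.39 to 2.17), with log2 ratios of 1.14 ± 0.33 and 0.34 ± 0.09 (SD, n = 6 each, exact permutation p = 0.00216, adjusted p = 0.0420). Within the first shared run the log2 difference was 0.67 and within the second it was 0.86, and XLF-/- libraries did not overlap PAXX-/- libraries in either. With run as a block the exact permutation p was 0.00476 (adjusted p = 0.0410). As a share of junctions outside the bait window (all but those within 10 kb of the bait), far chromosome 12 took 2.76% ± 0.412 in XLF-/- and 1.64% ± 0.545 in PAXX-/- (SD, n = 6 each), or 1.11 points more in XLF-/- (95% interval 0.477 to 1.76, p = 0.00649 by exact permutation, 0.0420 adjusted).

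Against WT, the PAXX-/- density ratio was 0.774-fold (95% interval 0.644 to 0.910) and the XLF-/-PAXX-/- ratio 1.42-fold (1.19 to 1.72), both at the lowest p that 6 against 3 libraries can reach (exact permutation p = 0.0119, adjusted p = 0.0465). Both calls lie at the edge of what the design can give. The PAXX-/- call was lost in 6 of 9 other processing settings and the double-mutant call in 5 of 9, with the direction kept in all of them. The XLF-/- ratio was 1.35-fold that of WT (0.946 to 1.92, exact permutation p = 0.107) and the Ligase4-/- ratio 1.42-fold (0.771 to 2.50, exact permutation p = 0.131), and neither passed. The share was 2.62% ± 0.288 in XLF-/-PAXX-/- and 1.83% ± 0.202 in WT (SD, n = 6 and 3), or 0.791 points more in the double mutant (95% interval 0.354 to 1.23, exact permutation p = 0.0119, adjusted p = 0.0465). In 7 of 8 other settings this share difference did not pass, with 0.433 points as a share of all junctions (adjusted exact permutation p = 0.120).

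The share in Ligase4-/- was 3.53% ± 0.793 (SD, n = 6), 1.70 points above WT (0.747 to 2.70, p = 0.0238 by exact permutation, 0.0731 adjusted), which did not pass after adjustment. Ligase4-/- clone 1 had the highest share of any clone, 3.96%, 4.44% and 4.25% in its libraries, against 2.55%, 3.13% and 2.83% in clone 2. The libraries of clone 1 came from 3 runs and those of clone 2 from 1 other run. An effect of run therefore cannot be told apart from one of clone there. The double mutant differed from XLF-/- by -0.135 points in share (-0.602 to 0.314, exact permutation p = 0.526) and was 1.06-fold in density ratio (0.830 to 1.33, exact permutation p = 0.595). Over the 9 clones, genotype held 74.4% of the sum of squares in the log2 density ratio (exact permutation p = 0.177) and the same percentage of that of the share (exact permutation p = 0.151), and neither passed, so that no difference in density between genotypes was called with clones as the units.

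Among 9 bands of distance, mean density was highest in the one next to the boundary and lay near the level of other chromosomes in the furthest, although single 1 Mb bins further away held more junctions than the nearest 1 Mb. Within 1 Mb lay 222 junctions, 12.9-fold the density of other chromosomes as a mean over clones (5.37 to 23.0). From 1 to 2 Mb the mean was 3.96-fold (76 junctions), from 2 to 5 Mb 2.59-fold (128), and from 5 to 10 Mb 1.92-fold (166). It was 2.26-fold at 10 to 20 Mb (367) and 3.64-fold at 20 to 40 Mb (1296), where the densest bin lies, with 2.23-fold when that bin is left out. From 40 to 60 Mb it was 2.27-fold (791), or 1.48-fold without the second densest bin. From 60 to 80 Mb it was 1.01-fold (315), and beyond 80 Mb 0.870-fold (427), where all 9 clones lay between 0.764 and 0.971.

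**Figure D2:**
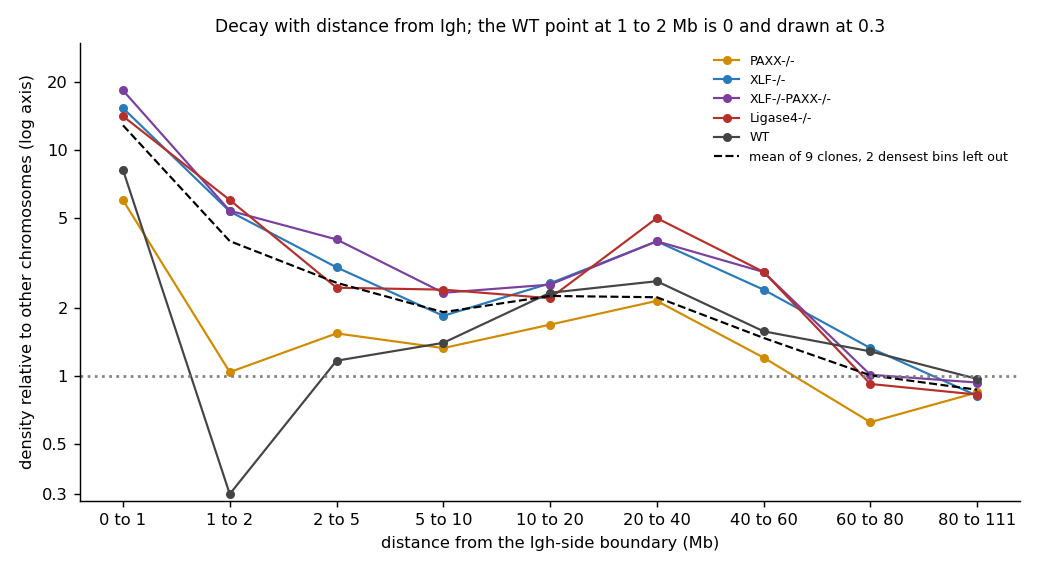
Junction density relative to all other chromosomes (log axis) by distance from the boundary, 1 line per genotype (mean of its clones), with the WT value of 0 at 1 to 2 Mb drawn at 0.3. The dashed line is the mean of 9 clones with the 2 densest 1 Mb bins left out, which goes from 12.9 within 1 Mb to 0.870 beyond 80 Mb.

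The nearest 10 Mb were 1.73-fold as dense as the rest of far chromosome 12 (mean log2 ratio 0.79, higher in 9 of 9 clones, exact sign-flip permutation p = 0.00391, adjusted p = 0.0420). Without the nearest 1 Mb the log2 value was 0.35 and did not pass (adjusted exact permutation p = 0.0731). By clone the log2 ratio was highest in the XLF-/-PAXX-/- clones, at 1.30 and 1.16, and lowest in PAXX-/- clone 2, at 0.43, and WT, at 0.13.

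The share of far junctions that lay in the nearest 10 Mb averaged 19.5% and 18.3% in the XLF-/-PAXX-/- clones. It averaged 14.5% and 17.3% in the XLF-/- clones, 15.4% and 15.8% in the Ligase4-/- clones, 13.8% and 12.7% in the PAXX-/- clones, and 10.2% in WT (clone means of 3 libraries). Genotype held 92.2% of the sum of squares over clones (exact permutation p = 0.00635 over 945 splits, adjusted p = 0.0420). With the split set at 5 Mb the value was 93.2% (adjusted exact permutation p = 0.0731), at 20 Mb 68.97% (adjusted exact permutation p = 0.394), and without the nearest 1 Mb 43.3% (adjusted exact permutation p = 0.754), none of which passed. The single WT clone held 3 to 7 such junctions per library. The test over clones treats them as independent, although both double-mutant clones were derived from the same PAXX-/- clone. Only PAXX-/- and XLF-/- shared runs, so among the other genotypes an effect of run cannot be told apart from one of genotype.

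In the nearest 1 Mb the PAXX-/- clones had 9 and 8 junctions, or 0.613 and 0.731 per 1000 outside the bait window. The XLF-/- clones had 28 and 14 (1.96 and 1.23 per 1000), the XLF-/-PAXX-/- clones 38 and 26 (2.15 and 1.64). Ligase4-/- had 76 and 16 in its clones (2.71 and 1.05), and WT had 7 (0.822). From 1 to 2 Mb WT had 0 of its 156 far junctions, which allows a share of up to 1.92%, while the other clones had 1 to 32. Within the nearest 1 Mb the density did not fall steadily. The 100 kb closest to the boundary held 29 junctions, the next 9, and the stretch from 500 to 600 kb held 88 in all 9 clones.

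That stretch holds the start of Inf2, a formin that controls actin filaments. Of the 222 junctions, 61 lay within 10 kb of it, 44 of them in the first 5 kb along the gene, in 9 clones and 22 libraries. PAXX-/- clones had 5 and 4 junctions there, XLF-/- clones 4 and 1, XLF-/-PAXX-/- clones 9 each, Ligase4-/- clones 25 and 2, and WT 2. As for every gene named here, the start (113826978 on the plus strand, mm9) was found by matching reads exactly to RefSeq promoter sequences, since no mm9 annotation was used, and the genes were singled out after their values were seen.

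All 112 bins of 1 Mb held junctions, with a median of 21, but a pair of bins stood far above the rest. The bin at 81 to 82 Mb held 610 junctions and the bin at 56 to 57 Mb held 331, together 24.8% of the total, and both were hit in all 27 libraries. With clones weighted equally they took 12.2% (7.08% to 27.6% by clone) and 6.87% (2.63% to 12.4%) of far junctions. The next was 113 to 114 Mb, beside the boundary, with 164 junctions and 4.05%. The bins at 88, 100, 103, 63, 112 and 80 Mb held 86, 80, 60, 63, 74 and 56 junctions, and took 1.39% to 2.27% each. Of the 63 junctions in the bin at 63 Mb, 49 belong to 1 cluster spread over 71 bases, described at the end of the results. The partial bin at the boundary itself, above 114 Mb, held 84 (1.98%), and the furthest bin, 3 to 4 Mb, held 24 (0.741%).

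**Figure D3:**
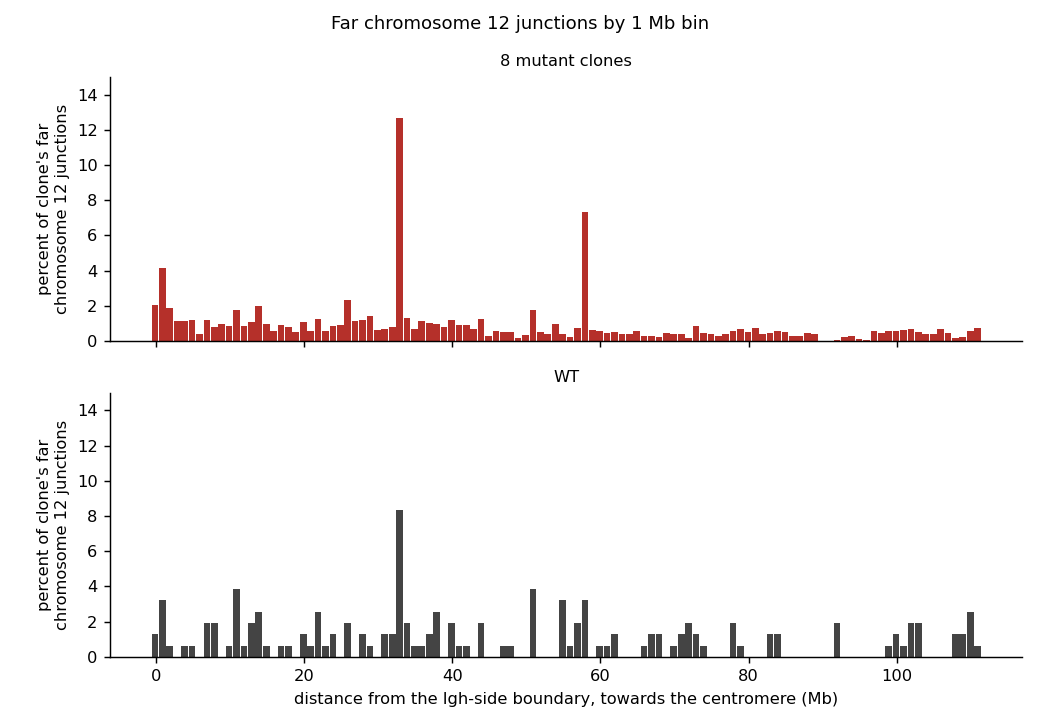
Percent of a clone's far chromosome 12 junctions in each 1 Mb bin, against distance from the boundary, as the mean of the 8 mutant clones (above) and in WT (below). The tall bars at about 33 and 58 Mb are the bins at 81 to 82 and 56 to 57 Mb, with means over all 9 clones of 12.2% and 6.87%.

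In the densest bin, Ligase4-/- clone 1 had 329 of its 1190 far junctions (27.6%, 95% exact binomial interval 25.1 to 30.3), and Ligase4-/- clone 2 had 45 of 439 (10.3%, 7.58 to 13.5). The XLF-/-PAXX-/- clones had 56 of 496 (11.3%) and 60 of 394 (15.2%), the XLF-/- clones 49 of 354 (13.8%) and 27 of 357 (7.56%), and the PAXX-/- clones 16 of 190 (8.42%) and 15 of 212 (7.08%). WT had 13 of 156 (8.33%, 4.51 to 13.8). These intervals, like every binomial interval here, cover counting error only. The libraries of Ligase4-/- clone 1 had 15.3%, 31.3% and 32.7%, so that all 3 lay above the WT libraries at 8.47%, 10.6% and 6.0%. Those of Ligase4-/- clone 1 came from 3 different runs. In the bin at 56 to 57 Mb the same clone had 148 junctions (12.4%) and WT 5 (3.21%). Without both bins, the XLF-/- share of junctions differed from PAXX-/- by 0.821 points and the double mutant's from WT by 0.430 points, and neither passed (adjusted exact permutation p = 0.102 and 0.171).

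Gene starts matched by reads lay at the peaks of both bins. In the densest it was that of Zfp36l1, which encodes a zinc-finger protein that binds AU-rich elements and promotes decay of the mRNAs that carry them. Its start lay at 81214000 (minus strand, mm9, 21 matching reads), and 458 of the bin's 610 junctions lay within 10 kb of it. In the second, those of Nfkbia and of the divergent transcript Gm36634 were matched. Nfkbia encodes IκBα, the inhibitor that holds NF-κB in the cytoplasm and is itself induced by NF-κB. Its start lay at 56593634 (minus strand, mm9, 8 matching reads), with 282 of the 331 junctions within 10 kb. Gm36634 starts at 56594282 on the plus strand, also with 8 matching reads, and 282 junctions lay within 10 kb of it too.

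The promoters of Zfp36l1 and Nfkbia are shown because junctions fell inside them, 15 in that of Zfp36l1 and 8 in that of Nfkbia. Each runs from 250 bases before the start to 50 after it, from RefSeq (GRCm38.p6, minus strand). Capitals mark AGCT, the core of the motif that AID favours in switch regions, which reads the same on both strands. It is in 77.6% of the 32851 promoters of this length in that set.
Zfp36l1 promoter (chr12:80112964-80113263): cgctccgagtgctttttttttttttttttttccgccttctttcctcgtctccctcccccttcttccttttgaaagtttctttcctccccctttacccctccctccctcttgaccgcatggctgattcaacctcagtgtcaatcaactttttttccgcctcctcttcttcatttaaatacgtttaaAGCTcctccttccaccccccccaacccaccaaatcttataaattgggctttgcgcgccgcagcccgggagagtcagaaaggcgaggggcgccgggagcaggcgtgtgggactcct
Nfkbia promoter (chr12:55492598-55492897): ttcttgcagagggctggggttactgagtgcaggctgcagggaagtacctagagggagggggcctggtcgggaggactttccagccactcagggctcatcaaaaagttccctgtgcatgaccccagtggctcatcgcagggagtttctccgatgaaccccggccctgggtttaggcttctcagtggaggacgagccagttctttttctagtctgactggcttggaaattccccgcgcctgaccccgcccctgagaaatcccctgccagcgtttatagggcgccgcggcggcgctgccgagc
The Zfp36l1 window holds 1 AGCT and the Nfkbia window holds 0. Around the junctions themselves, AGCT was in the 20 bases of deposited junction context (10 on each side) at 11.1% of far junctions and at 12.2% of those in the 2 densest bins, against 9.46% on other chromosomes and 34.1% in the Sα window.

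Junctions at both genes lay mostly downstream of the start. At Zfp36l1, 313 of the 458 lay in the first 5 kb along the gene, with a median 1123.5 bases downstream and the most, 72 per 500 bases, between 1000 and 1500. At Nfkbia, 220 of 282 did so, with a median 1976.5 bases downstream and the most, 50, between 2000 and 2500.

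**Figure D4:**
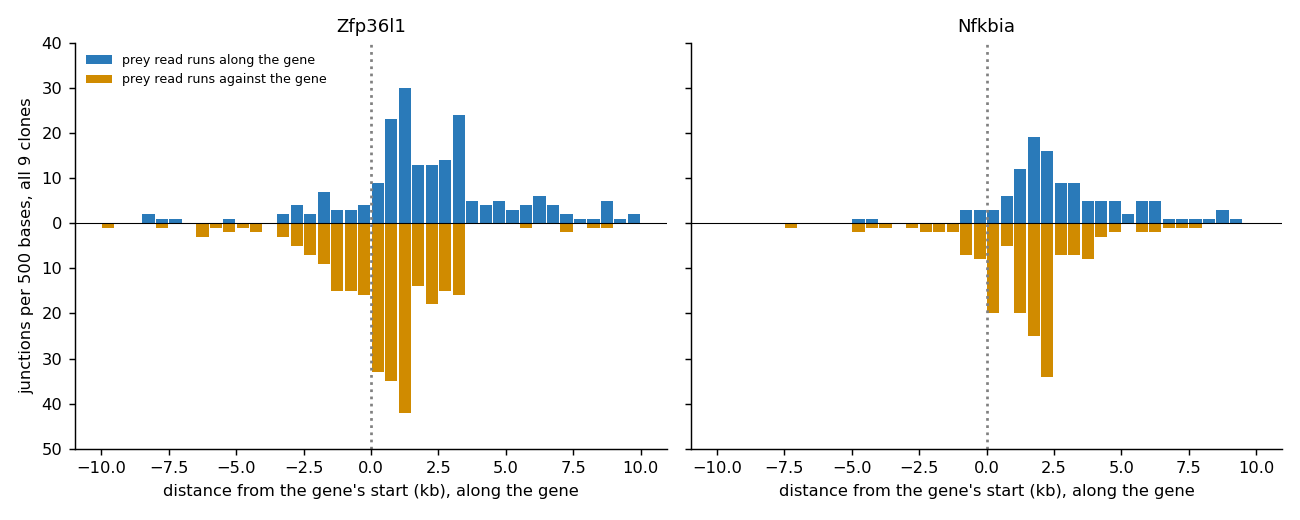
Junctions per 500 bases around the starts of Zfp36l1 and Nfkbia, all clones together, above the line where the prey read runs along the gene and below it where it runs against. Most lie between the start (dotted) and 5 kb downstream, 313 of 458 at Zfp36l1 and 220 of 282 at Nfkbia, and those upstream mostly run against the gene.

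How far the junctions spread around these starts is given by genotype as counts with no test, since the windows were chosen from the data. Over both genes, 60 of 96 junctions (62.5%, 95% exact binomial interval 52.0 to 72.2) lay in the first 5 kb in XLF-/-, 117 of 164 (71.3%, 63.8 to 78.1) in XLF-/-PAXX-/-, and 316 of 440 (71.8%, 67.4 to 76.0) in Ligase4-/-. In PAXX-/- it was 28 of 28, with a lower bound of 87.7%, and in WT 12 of 12, with a lower bound of 73.5%. So no PAXX-/- or WT junction lay in the 10 kb upstream or beyond 5 kb downstream, where the other genotypes had 207. Ligase4-/- clone 1 alone gave 111 of these, and 385 of the 440 Ligase4-/- junctions. Its share in the first 5 kb was 71.2%, against 76.4% in Ligase4-/- clone 2 and 59.5% to 71.4% in the XLF-/- and XLF-/-PAXX-/- clones. Of those 207, the prey read ran away from the first 5 kb in 157 (75.8%, 69.4 to 81.5), that is, upstream against the gene or downstream along it. In XLF-/- the share in the first 5 kb was 50.9% (29 of 57) at Zfp36l1 and 79.5% (31 of 39) at Nfkbia, and in Ligase4-/- it was 69.3% (196 of 283) and 76.4% (120 of 157).

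Fewer junctions lay near other gene starts that the reads identified. Within 10 kb of the start of Daam1, another formin (72932055, plus strand), lay 17 junctions in 5 clones, and within 10 kb of 2310015A10Rik (81233831, minus strand) lay 17 in 4 clones. A window of 10 kb from 81120001 held 54 junctions in 5 clones, 41 of them in Ligase4-/- clone 1. It is the window of the insertion joint shown above, and no gene start was matched there.

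No strand preference was detected over far chromosome 12 as a whole. Single windows, picked after seeing the data and not tested, leaned either way. Plus-strand prey made up 249 of 406 junctions in the 10 kb from 81210001 and 6 of 46 in the 10 kb from 81200001. Prey on the plus strand made up 50.0% of the junctions within 1 Mb of the boundary (111 of 222). By clone the share over far chromosome 12 ran from 46.8% to 55.7%, the bounds being the 2 PAXX-/- clones, and WT had 48.7%. Each clone's 95% exact binomial interval included 50%. In the Sα window, where the minus strand is the orientation that deletes the intervening DNA, the plus share by clone was 3.07% to 17.2%. The mean share over clones was 51.3% on far chromosome 12 and 51.0% on other chromosomes, a difference of 0.256 points (exact sign-flip permutation p = 0.789). Genotype held 43.2% of the sum of squares in the plus share (exact permutation p = 0.593).

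Joint structure on far chromosome 12 was 15.1% direct, 61.1% microhomology and 23.8% insertion as means over clones, and 15.4%, 55.7% and 28.9% on other chromosomes. The direct share differed by -0.354 points (exact sign-flip permutation p = 0.625). The microhomology share was 5.45 points higher on far chromosome 12 in 8 of 9 clones (exact permutation p = 0.00781, adjusted p = 0.0420) and the insertion share 5.09 points lower in 9 of 9 (exact permutation p = 0.00391, adjusted p = 0.0420).

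Both of those differences turned round when reads with more than 20 unaligned bases between bait and prey were left out. Such gaps were in 11.5% of far junctions by clone mean (5.08% to 22.8%) and in 20.1% on other chromosomes (11.8% to 37.7%), and were less frequent on far chromosome 12 in every clone. Their prey alignments were short, with a median of 27 bases on far chromosome 12, against 132 in the other far junctions. Without them the microhomology share differed by -0.389 points (adjusted exact permutation p = 0.814) and the insertion share by 2.37 points (adjusted exact permutation p = 0.0747). With prey of at least 50 bases also required, a setting chosen after seeing the data, the insertion difference was 2.28 points and passed (adjusted exact permutation p = 0.0310).

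Among microhomology joints, the shared stretch averaged 3.62 bases on far chromosome 12 and 4.10 on other chromosomes, a difference of -0.475 bases, shorter in 8 of 9 clones (exact sign-flip permutation p = 0.00781, adjusted p = 0.0420). With prey of at least 50 bases it was -0.540 bases and passed (adjusted exact permutation p = 0.0310), while without the 2 densest bins it was -0.301 bases and did not (adjusted exact permutation p = 0.112). Both settings were chosen after seeing the data. By length, overlaps of 2 and 3 bases were in 13.6% and 12.2% of far junctions, against 12.8% and 9.63% on other chromosomes, and overlaps of 10 or more in 3.87% against 5.36%.

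Long gaps were more frequent at a distance, in 1.35% of junctions within 1 Mb of the boundary and in 20.6% and 18.3% at 60 to 80 Mb and beyond, while microhomology was in 72.1% within 1 Mb and in 53.9% beyond 80 Mb. The direct share was 11.3% within 1 Mb and 18.97% beyond 80 Mb. These shares pool all clones, whose weights change with distance. Ligase4-/- clone 1 gave 76 of the 222 junctions within 1 Mb and 86 of the 427 beyond 80 Mb. The part of this clone mix in the trends was not tested.

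By clone, PAXX-/- had 18.7% ± 4.80 and 17.5% ± 6.81 direct joints on far chromosome 12, and XLF-/- had 11.4% ± 4.09 and 17.8% ± 3.70 (SD, n = 3 libraries each, as for all clone values of joint structure). XLF-/-PAXX-/- had 16.0% ± 3.47 and 12.1% ± 1.87, Ligase4-/- had 10.0% ± 0.910 and 13.1% ± 4.31, and WT had 19.2% ± 2.54. In every genotype at least 1 library overlapped the WT range. For microhomology PAXX-/- had 57.1% ± 7.91 and 57.6% ± 2.33, and XLF-/- had 66.0% ± 3.68 and 63.7% ± 7.55. XLF-/-PAXX-/- had 62.0% ± 8.01 and 67.1% ± 4.29, Ligase4-/- had 69.2% ± 2.95 and 55.0% ± 10.3, and WT had 52.5% ± 12.3. The WT libraries had 59.3%, 38.3% and 60%, a spread that limits every comparison with them.

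No difference in structure between genotypes passed on far chromosome 12. Genotype held 65.1% of the sum of squares in the direct share (exact permutation p = 0.276), 56.97% of that of the microhomology share (p = 0.398 by the exact permutation test), 48.1% of that of the insertion share (exact permutation p = 0.506) and 71.8% of that of microhomology length (exact permutation p = 0.192). By library, the direct share in Ligase4-/- differed from WT by -7.67 points (95% interval -12.3 to -2.95, p = 0.0238 by exact permutation, 0.0731 adjusted). With prey of at least 50 bases and no long gap, a setting chosen after seeing the data, that difference was -12.4 points. The one for the double mutant was then -10.9 points, and both passed (adjusted exact permutation p = 0.0465), in tests against libraries of 1 WT clone. The microhomology share in XLF-/- lay 12.3 points above WT (0.810 to 27.7, p = 0.0476 by exact permutation, 0.120 adjusted) and 7.51 points above PAXX-/- (0.274 to 14.2, p = 0.0390 by exact permutation, 0.105 adjusted). PAXX-/- differed from WT by -1.14 points in direct joints (-9.99 to 7.71, exact permutation p = 0.714) and by 4.80 points in microhomology (-6.0 to 17.95, exact permutation p = 0.429).

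Far chromosome 12 was also set against the Sα window (85155 junctions), a comparison added after its values were seen and adjusted over its own 8 tests. Direct joints were 5.21 points more frequent on far chromosome 12, in 9 of 9 clones (exact sign-flip permutation p = 0.00391, adjusted p = 0.0156), with means of 15.1% and 9.87%. For XLF-/- the difference was 4.92 and 11.7 points, for XLF-/-PAXX-/- 10.1 and 6.38, and for Ligase4-/- 4.0 and 6.56, and in these clones the Sα share was near 6%. It was 1.56 and 0.853 points in the PAXX-/- clones and 0.866 in WT, where the Sα share was 17.1%, 16.6% and 18.4%. The test of that difference between genotypes gave 72.6% of the sum of squares and did not pass (exact permutation p = 0.217).

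Microhomology was 0.942 bases longer on far chromosome 12 than at Sα, 3.62 against 2.68 bases, in 9 of 9 clones (exact sign-flip permutation p = 0.00391, adjusted p = 0.0156). The excess was 0.316 to 0.901 bases in the XLF-/-, XLF-/-PAXX-/- and Ligase4-/- clones, 1.77 and 1.63 in the PAXX-/- clones and 1.43 in WT, and the genotypes did not differ after adjustment (91.5% of the sum of squares, p = 0.0476 by exact permutation, 0.117 adjusted). By length, only long overlaps were more frequent on far chromosome 12. Those of 5 to 9 bases were in 10.7% of far junctions and 6.69% at Sα, and those of 10 or more in 3.87% and 0.219%. Overlaps of 1, 2, 3 and 4 bases were in 12.9%, 13.6%, 12.2% and 7.48% of far junctions. At Sα they were in 13.7%, 20.6%, 16.1% and 9.66% (means over clones, not tested). The microhomology share differed from Sα by -5.90 points (exact permutation p = 0.0586) and the insertion share by 0.688 points (exact permutation p = 0.781). Without long gaps the microhomology difference was -0.00899 points over all clones, and it differed between genotypes (93.7% of the sum of squares, adjusted exact permutation p = 0.0487). The insertion difference was then -7.07 points (adjusted exact permutation p = 0.0208).

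**Figure D5:**
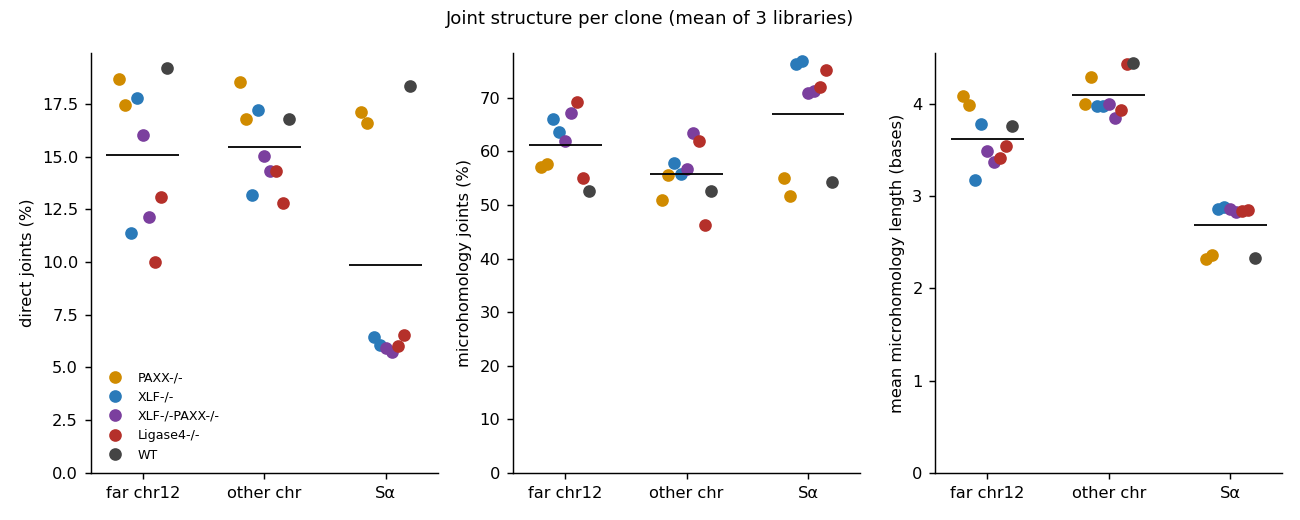
Direct joints, microhomology joints and mean microhomology length per clone (means of 3 libraries) on far chromosome 12, on other chromosomes and in the Sα window, with a line at the mean of the 9 clones. At Sα the direct share splits into PAXX-/- and WT clones at about 17% to 18% and the rest near 6%, while on far chromosome 12 the clones run from 10.0% to 19.2%.

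At Zfp36l1 and Nfkbia, direct joints were 55 of 740 (7.43%, 95% exact binomial interval 5.65 to 9.56), against 459 of 3048 (15.1%, 13.8 to 16.4) in the rest of far chromosome 12, and microhomology was 74.7% against 60.6%. These shares pool clones of unlike weight, as Ligase4-/- clone 1 gave 385 of the 740 junctions and 805 of the 3048. Its direct share was 5.71% against 11.9%. PAXX-/- clone 2 was the only clone with more direct joints at the genes (4 of 13, 30.8% against 17.1%). XLF-/- clone 1 was nearly level (11.9% against 12.2%). By genotype the direct share was 17.9% in the gene windows and 18.7% in the rest for PAXX-/-, 12.5% and 15.8% for XLF-/-, and 7.93% and 15.3% for XLF-/-PAXX-/-. It was 5.45% and 12.8% for Ligase4-/-, and for WT 1 of 12 (8.33%) and 20.1%. Gaps over 20 bases were in 1.62% of gene-window junctions and in 11.8% of the rest, and their part in the difference was not tested.

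Few exact positions recurred. In all, 33 positions had junctions on the same strand in at least 2 clones and 13 in at least 3. The 5 in the most clones are shown, with the 10 positions tied at 3 clones ordered by their number of junctions. Of the tied positions not shown, 56591479 had a median prey of 131 bases and 81212709 one of 59. Each line gives bait, joint and prey as above, except that only prey bases are given where over 20 bases were unaligned.
Position 63383362, minus strand, 5 clones, 9 junctions: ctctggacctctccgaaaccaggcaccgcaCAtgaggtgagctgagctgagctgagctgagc
Position 81569732, minus strand, 5 clones, 6 junctions: cttgaaaaaaaaaaaaaacatacaacaaca
Position 4171157, minus strand, 4 clones, 4 junctions: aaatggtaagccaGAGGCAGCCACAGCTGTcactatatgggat
Position 63383369, minus strand, 3 clones, 12 junctions: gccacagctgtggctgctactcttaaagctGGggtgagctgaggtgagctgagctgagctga
Position 22997145, minus strand, 3 clones, 4 junctions: cttgaaaaaaaaaaacaaaacacataaata
At 81569732 and 22997145 the prey is A-rich, 25 to 31 bases long, and preceded by 71 to 115 unaligned bases in every read. At 4171157 all 4 reads shared the same 17 bases with the bait.

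The positions 63383362 and 63383369 belong to 1 cluster of 49 junctions in all 9 clones, spread over 71 bases. Its prey has the pentamer GAGCT (either strand, each copy containing an AGCT), the unit that switch regions repeat, 12.2 times per 100 bases and in every one of the 49 reads. The rest of far chromosome 12 has 0.244 per 100 prey bases, other chromosomes 0.257 and the Sα window 1.57. The median prey of the cluster is 45 bases. Whether these reads come from 63 Mb or from a switch region was not tested.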

How the data were processed

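Each deposited table holds 1 line per junction, with the positions of its bait and prey alignments on mm9, the unit recorded here as other. Reads were aligned with Bowtie2 by the authors, per the submitters' processing notes, and the sources used here do not give the filters behind the tables. Depth is the number of junctions per library. Each table pools the 3 libraries of a clone, and the library names in it match no replicate title, so libraries were tied to clones by their table, per the labels, and numbered only as names.

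Positions were counted per library, and a clone's value was the mean of its libraries. Lengths run from the first to the last junction of each chromosome. The Sα window was centred on the densest stretch of chromosome 12 junctions in these data away from the bait. Tests were exact permutation tests, two-sided: sign flips over 9 clones (512 patterns), splits of the clones by genotype (945) and splits of libraries (84 for 6 against 3, 924 for 6 against 6). These 43 tests were adjusted together, with calls at 0.05. The intervals of differences between libraries invert the permutation test. Computation was in Python 3.11.15 with scipy 1.17.1, numpy 2.4.6 and pandas 2.3.3, and the test functions were tested on simulated data. Genes were located by exact 25-base matches of at least 3 reads to RefSeq promoters. Bins named are the 10 with the highest mean share, that next to the boundary and the furthest, and positions are the 5 found in most clones, with ties ordered by junctions. The region, the measures and these rules were chosen with earlier results of these data known.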

Additional observations from a re-analysis of the deposited data

Results flagged for a closer look

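These comparisons stood out because groups differed by a test of the difference itself. The share of far junctions in the nearest 10 Mb differed between genotypes, which held 92.2% of its sum of squares. The log2 density ratio of PAXX-/- libraries minus that of WT was -0.37, that of XLF-/-PAXX-/- minus WT was 0.51, and that of XLF-/- minus PAXX-/- was 0.80. The comparisons with WT rest on 1 WT clone whose run held no other genotype, and an effect of run cannot be told apart from one of genotype there. The differences in density ratio were tested over libraries of 1 or 2 clones per genotype. With the 9 clones as units, the density ratio did not differ between genotypes (exact permutation p = 0.177). The nearest 10 Mb difference was lost in 8 of 10 other settings. That difference also rests in part on genotypes that shared no run, where an effect of run cannot be told apart from one of genotype.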

How the results depend on the processing

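No paired analysis was possible because the library names carry no replicate number. Most calls sit just under the adjusted threshold. Of 2020 recomputed values, 222 lost a call and 13 gained one. In all 71 changed sign, 65 of them past the threshold in neither setting. Log2 density ratios and points of share are given below as they were recomputed. A call can be lost with its exact permutation p unchanged, because the adjusted p also depends on the other tests. With identical junctions counted once, it stayed at 0.0119 for the PAXX-/- and double-mutant ratios against WT. Their adjusted p rose to 0.0512. Without the nearest 1 Mb, the exact permutation p for density stayed at 0.00391, with an adjusted p of 0.0560. The cause of the other changes was not tested unless fewer splits are named.

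Counting identical junctions once lost the nearest 10 Mb difference between genotypes (91.4%), the double-mutant share against WT (0.805), and the density ratios of PAXX-/- (-0.37) and the double mutant (0.51) against WT. Without gaps over 20 bases, microhomology (-0.389) and insertions (2.37) against other chromosomes changed sign, and microhomology length (-0.475), the nearest 10 Mb difference (87.3%), the double-mutant share (0.980) and the ratios of PAXX-/- (-0.35) and the double mutant (0.54) against WT were lost. Against Sα the insertion difference changed sign (-7.07) and the microhomology difference between genotypes was gained (93.7%). Without the nearest 1 Mb, density (0.88), the nearest 10 Mb against the rest (0.35), microhomology (4.95), insertions (-4.65), microhomology length (-0.470), the nearest 10 Mb difference (43.3%), the shares of the double mutant against WT (0.677) and XLF-/- against PAXX-/- (1.03), and the ratios of PAXX-/- (-0.37) and the double mutant (0.46) against WT and of XLF-/- against PAXX-/- (0.78) were lost. Without the densest 10 kb windows the double-mutant share was lost (0.691) and the Ligase4-/- share against WT gained (1.36). In PAXX-/- clone 2, XLF-/- clone 1 and both XLF-/-PAXX-/- clones, 37.8% to 50.9% of reads carried another base at bait base 69, 70 or 81. Keeping only junctions whose bait ended before these positions left 55.8% of all junctions. With bait ends before the substituted bait positions, microhomology length (-0.335), the nearest 10 Mb difference (79.8%), the double-mutant share (0.650) and the ratios of PAXX-/- (-0.40) and the double mutant (0.49) against WT were lost, and the length difference from Sα between genotypes was gained (98.4%). As a share of all junctions the double mutant against WT (0.433) and XLF-/- against PAXX-/- (0.716) were lost. The nearest 10 Mb difference was lost with the split at 5 Mb (93.2%) and 20 Mb (68.97%), and microhomology without insertions in the denominator (1.81).

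The remaining settings were chosen after seeing the data. With prey of at least 50 bases and no gap over 20, microhomology (-0.516), insertions (2.28) and insertions against Sα (-8.39) changed sign. The nearest 10 Mb difference (87.8%) and the PAXX-/- ratio (-0.28) were lost. The XLF-/- share against WT (1.13), direct joints of the double mutant (-10.9) and Ligase4-/- (-12.4) against WT, and the microhomology difference from Sα between genotypes (97.9%) were gained. Without the 2 densest bins, microhomology (3.56), its length (-0.301), the nearest 10 Mb difference (90.8%), the shares of the double mutant (0.430) and XLF-/- against PAXX-/- (0.821), and the ratios of PAXX-/- (-0.36) and the double mutant (0.32) against WT were lost.

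Leaving out 1 clone or library gave 0.87 to 1.03 for density, 0.73 to 0.88 for the nearest 10 Mb against the rest, 4.95 to 6.23 for microhomology, -5.99 to -4.57 for insertions and -0.546 to -0.423 for microhomology length. The nearest 10 Mb difference ran from 79.7% to 97.8%. The share ran from 0.601 to 0.981 for the double mutant against WT, 0.789 to 1.44 for XLF-/- against PAXX-/- and 0.215 to 1.60 for Ligase4-/- against the double mutant. The ratio ran from -0.46 to -0.23 for PAXX-/- and 0.42 to 0.65 for the double mutant against WT, and 0.53 to 1.07 for XLF-/- against PAXX-/-. Microhomology of XLF-/- against PAXX-/- ran from 6.28 to 9.42. Against Sα the differences between genotypes ran from 53.2% to 95.6% for microhomology, 44.9% to 95.2% for insertions and 87.7% to 99.1% for length. Fewer clones allow fewer splits, and each of the 11 calls was lost in at least 8 of the settings without 1 clone.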
